A study of Mus musculus with 8 samples.

Results

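The poly(A) transcriptome of untreated A3-1 cells, a mouse embryonic stem cell line, was read from 1 RNA-seq library of 8 libraries in the study. Every transcript in the count column of that library was taken, 16456 RefSeq transcripts in all, of which 15637 were coding and 819 non-coding. The cells had received no siRNA and were kept in DMEM that held 20% fetal bovine serum, non-essential amino acids and leukaemia inhibitory factor (LIF). RNA was purified with TRIzol and enriched on oligo-dT before fragmentation and Illumina sequencing. The study centres on the RNA-binding protein LIN28A, and its other 7 libraries, from LIN28A immunoprecipitation, siRNA-treated cells and ribosome profiling, are not compared here. The labels give no sex or passage and do not mention feeder cells.

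Mouse embryonic stem cells are derived from the inner cell mass of the blastocyst and can form all lineages of the embryo. In serum and LIF they renew themselves through a circuit around the transcription factors OCT4 (the product of Pou5f1), SOX2 and NANOG, with LIF acting through STAT3, while FGF4 made by the cells acts through ERK to prime them for differentiation. They divide fast, with a short first gap phase, and keep most developmental regulators off or low.

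The library held 9264777 counts. Levels are given as RPKM, the counts per kilobase of exon length and per 1000000 counts, so that transcripts of different length can be compared, and as CPM, the counts per 1000000 counts, where length is left aside. With 1 library there is no replicate error and no test, and the 95% intervals given cover counting error only. They are exact Poisson intervals of a level and Clopper-Pearson intervals of a ratio or share. A single count at the median exon length of 2663.5 bases stood for 0.0405 RPKM. For a transcript with 0 counts the level allowed is given as the value of 3 counts in place of the interval, which is 0.122 RPKM at that length. The RNA came from bulk cells, so fewer cells that make a transcript and less of it per cell cannot be told apart.

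All 4 marker genes of the line were high. Pou5f1 (NM_013633, mm9 chromosome 17, 35642984 to 35647722), the core pluripotency factor, had 10904 counts, or 874 RPKM (858 to 891), and ranked 14 of 16456. Trim28 (NM_011588, mm9 chromosome 7, 13609501 to 13616381), the corepressor that silences endogenous retroviruses, had 37121 counts, or 1236 RPKM (1223 to 1249), rank 8. Sox2 (NM_011443, mm9 chromosome 3, 34548927 to 34551382) stood at 343 RPKM (335 to 351) from 7802 counts, rank 91. Lin28a (NM_145833, mm9 chromosome 4, 133559245 to 133574731) stood at 133 RPKM (129.5 to 138), rank 506. Lin28a was thus the lowest of the 4 per length, and all 4 stood above 100 RPKM.

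The sequences around the start sites of a few genes are shown first, as examples of features described after the families. Of those features the CpG content of promoters rose with level class. The share with TATAAA did not change steadily, and that with a pyrimidine run went from 10.6% in the lowest class to 15.3% in the highest. The first group holds ribosome genes with a pyrimidine run at the annotated start (in capitals; a C followed by at least 4 C or T, beginning within 3 bases of the start). This is the letter pattern of terminal oligopyrimidine mRNAs, whose translation follows growth signals. Each window covers 40 bases before to 20 bases after the RefSeq start, GRCm38.p6, 5′ to 3′ on the gene's strand. The windows lie at chr11:48800320-48800379 (Gnb2l1, plus strand), chr7:3704001-3704060 (Rps9, plus), chr7:45128726-45128785 (Rpl13a, minus), chr7:141447611-141447670 (Rplp2, plus) and chr17:33955646-33955705 (Rps18, minus).
Gnb2l1: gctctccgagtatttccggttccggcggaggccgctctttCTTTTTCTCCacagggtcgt
Rps9: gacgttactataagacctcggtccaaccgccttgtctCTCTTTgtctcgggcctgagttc
Rpl13a: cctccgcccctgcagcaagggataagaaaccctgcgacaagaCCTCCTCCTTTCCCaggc
Rplp2: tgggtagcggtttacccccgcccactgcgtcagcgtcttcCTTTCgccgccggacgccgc
Rps18: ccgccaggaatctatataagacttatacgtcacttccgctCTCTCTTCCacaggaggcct

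The second group holds 3 abundant genes with the TATA box letters TATAAA (in capitals) between 40 and 20 bases before the start. Few genes carried this feature, 1.96% of those at 100 RPKM or more and 1.79% of all. Sod1 makes a superoxide dismutase, Stip1 a cochaperone of HSP70 and HSP90, and Srsf2 a splicing factor. The same windows lie at chr16:90220722-90220781 (Sod1, plus), chr19:7040007-7040066 (Stip1, minus) and chr11:116853075-116853134 (Srsf2, minus), GRCm38.p6.
Sod1: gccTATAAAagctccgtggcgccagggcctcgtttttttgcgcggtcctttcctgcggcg
Stip1: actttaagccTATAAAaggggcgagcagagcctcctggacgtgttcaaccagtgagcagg
Srsf2: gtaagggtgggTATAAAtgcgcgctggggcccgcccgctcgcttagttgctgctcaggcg

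The third group sets the 200 bases before the start of an abundant gene beside those of genes that had 0 counts, with each CG in capitals. Trim28 (chr7:13023952-13024151, plus) held 16 CG, Cdx2, a trophectoderm regulator with 0 counts (chr5:147307250-147307449, minus), held 12, and the muscle creatine kinase gene Ckm with 0 counts (chr7:19410894-19411093, plus) held 5, all in GRCm38.p6.
Trim28: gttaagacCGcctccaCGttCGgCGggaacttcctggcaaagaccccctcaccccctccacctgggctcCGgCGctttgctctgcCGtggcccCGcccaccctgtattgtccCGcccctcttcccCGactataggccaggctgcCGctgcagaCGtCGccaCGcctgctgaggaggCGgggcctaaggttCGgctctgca
Cdx2: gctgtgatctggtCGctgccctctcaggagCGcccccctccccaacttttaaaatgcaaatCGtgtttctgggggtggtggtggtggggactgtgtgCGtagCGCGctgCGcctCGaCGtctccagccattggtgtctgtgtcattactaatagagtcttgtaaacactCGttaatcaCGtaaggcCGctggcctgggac
Ckm: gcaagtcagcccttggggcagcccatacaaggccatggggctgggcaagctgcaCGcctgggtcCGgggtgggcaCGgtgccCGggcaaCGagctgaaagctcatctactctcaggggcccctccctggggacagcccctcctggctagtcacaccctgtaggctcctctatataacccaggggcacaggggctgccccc

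Levels over the whole table were wide and uneven. The median transcript stood at 5.70 RPKM, with quartiles at 0.612 and 22.04 and the 99th percentile at 260.4. A level of 1 RPKM or more was reached by 11612 transcripts, 70.6% of the table, 10 RPKM by 6658 (40.5%) and 100 RPKM by 759 (4.61%). There were 771 transcripts with 0 counts (4.69%), all of which had counts in another poly(A) library, since the table lists no transcript that is at 0 in all of them. Genes absent from the table therefore have no level, and counts of the gene lists below are over members in it. Not in the table were 1 of 19 primed epiblast, 4 of 20 neural, 5 of 22 mesoderm and 3 of 20 endoderm genes. The same held for 6 of 19 trophoblast, 4 of 18 germ cell, 8 of 18 fibroblast, 9 of 18 blood and 9 of 22 terminal genes. So it did for 5 of 18 genes of the 2-cell-like state, 2 of 8 Y-linked, 1 of 19 apoptosis and 3 of 23 long non-coding genes. The 5899 transcripts between 10 and 100 RPKM held 57.4% of all counts, the 748 between 100 and 1000 held 31.7%, and the 11 at 1000 or more held 2.96%. The 100 transcripts with most counts held 14.6% of the library and the 1000 with most counts 47.6%.

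**Figure D1:**
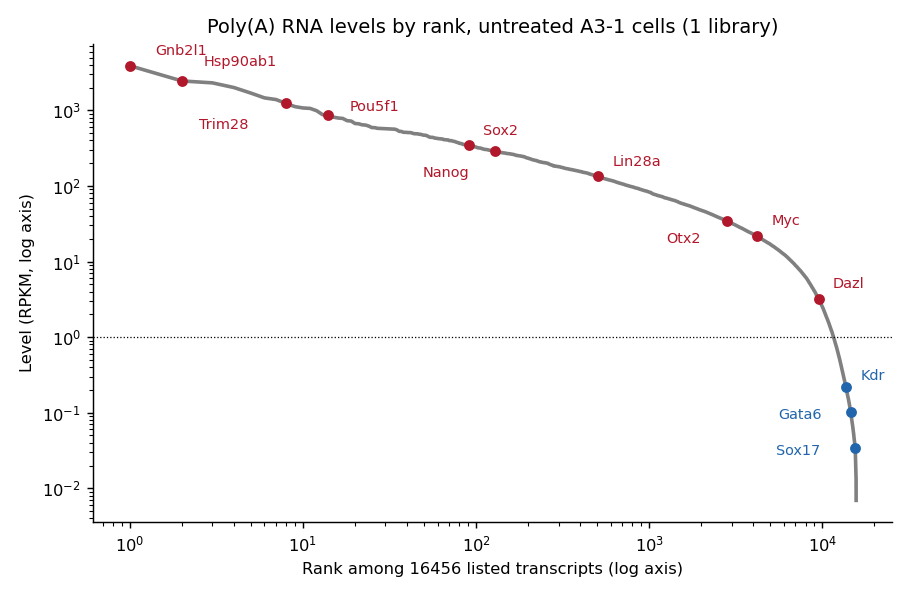
Level (RPKM, log axis) of each transcript with at least 1 count against its rank among 16456 (log axis) in 1 untreated library, with named genes marked in red at 1 RPKM or more (dotted line) and in blue below it. The 4 markers lie between 133 and 1236 RPKM, while the endoderm regulators Gata6 and Sox17 and the endothelial receptor gene Kdr lie at 0.101, 0.0345 and 0.218.

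The most abundant transcripts were those of protein synthesis, protein folding and mitochondrial ATP synthesis. Gnb2l1, which makes the ribosome-bound scaffold RACK1, was highest at 3897 RPKM. Hsp90ab1, the constitutive cytosolic HSP90 chaperone, followed at 2451 and held more counts than any other transcript, 56922 or 6144 CPM. The ribosomal protein genes Rpl8 and Rpl4 stood at 2311 and 1463 RPKM. Next to them were Atp5b, the catalytic beta subunit of ATP synthase, and Atp5a1, its alpha subunit, at 1694 and 877. The elongation factor genes Eef2 and Eef1a1 were at 1120.2 and 792, and Eef1b2, a nucleotide exchange factor for elongation factor 1, at 639.

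The rest of the 25 highest were of several kinds. Ywhae, a 14-3-3 adaptor, was at 1062 RPKM and Tubb5, a beta-tubulin, at 989.7. The nucleolar chaperone gene Npm1 was at 782, and Eif5a, whose product eases peptide bond formation on the ribosome, at 722. Rps3 stood at 813, Atp5g3 (the ATP synthase ring subunit) at 730.3, Sod1 at 670.1, Cox4i1 (cytochrome oxidase subunit 4) at 664, Cct5 (cytosolic chaperonin) at 644, Hnrnpab (an RNA-binding protein) at 619.6 and Pfn1 (profilin, an actin-binding protein) at 592. By CPM, where long transcripts weigh more, the 10 highest also held Fn1 (fibronectin) at 3560.2, Ncl (nucleolin) at 3392, the nuclear import receptor gene Kpnb1 at 2598 and the spliceosome gene Prpf8 at 2313. Trim28 had rank 3 by CPM, at 4007.

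A pair of small nucleolar RNAs, which guide methylation of ribosomal RNA, were among the 25 highest. Snord49a (62 bases) stood at 1389 RPKM from 798 counts and Snord82 (68 bases) at 1076 from 678 counts. Such short transcripts gain RPKM from few counts, and by CPM the same transcripts stood at 86.1 and 73.2. Snord49a lies inside the span of the listed transcript 2410006H16Rik (244 RPKM), and Snord82 inside that of Ncl (411 RPKM). How much of their counts came from those host transcripts was not tested. The listed exon length of Ncl was 8257 bases against a coding length of 2124, so its RPKM is low for its 31422 counts. The same holds for Rps3, with 1878 bases against 732, and for Eef1b2, with 1933 against 678.

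Several abundant transcripts are less usual among housekeeping genes, and were picked out after their values were seen. Trh, which makes the precursor of thyrotropin-releasing hormone, stood at 483 RPKM (6183 counts), rank 47. The metallothionein genes Mt1 and Mt2, whose products bind zinc and copper, stood at 576 and 572. Gsta4, a glutathione transferase that detoxifies lipid peroxidation products, was at 428, Igfbp2, which binds insulin-like growth factors, at 406, and Apoe, the lipid carrier apolipoprotein E, at 349.6. Upp1, a uridine phosphorylase, was at 297. Each of these had at least 2894 counts, so counting error is a small part of its level.

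Genes of the pluripotency circuit were high as a group. Like all lists below, theirs was drawn up with earlier results of these data known, so its counts describe the chosen genes only. Of 27 pluripotency transcription factors in the list, all 27 reached 1 RPKM, against 70.6% of the table, 26 reached 10 (40.5% of the table) and 10 reached 100 (4.61%), with a median of 68.8 RPKM against 5.70 for all transcripts. Pou5f1 was followed by Utf1, a chromatin-associated factor of embryonic stem cells, at 528 RPKM, and then by Sox2. Nanog was at 287, Klf2 at 283, Zfp42 (REX1) at 230.3 and Esrrb at 229. Tcfcp2l1, a LIF-responsive factor, was at 122 and Nr0b1 (DAX1) at 119. The naive-state genes Klf4, Tbx3 and Nr5a2 were lower, at 45.9, 42.2 and 36.6, and Prdm14 stood at 14.7. Gbx2 was the lowest of the list at 8.58.

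Genes of a second list, of other genes chosen for embryonic stem cells, were similarly high. This list too was chosen with earlier results known, and Trim28 was counted in it and again among the heterochromatin genes. Of 30 such genes 29 reached 1 RPKM (96.7%, against 70.6% of all) and 28 reached 10, with a median of 105 RPKM. After Trim28 the highest were Dppa5a, an RNA-binding protein of pluripotent cells, at 376, the cell cycle factor gene Mybl2 at 213, L1td1, which derives from a LINE-1 protein, at 211, Spp1 (osteopontin) at 204 and the adhesion protein gene Epcam at 191. Threonine dehydrogenase, Tdh, which feeds one-carbon metabolism in mouse embryonic stem cells, was at 167. Dppa3 (Stella), Dppa4 and Dppa2 stood at 11.3, 27.5 and 8.12. Alppl2, an alkaline phosphatase, had 3 counts (0.153 RPKM), while Alpl, the tissue-nonspecific enzyme, was at 58.5.

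**Figure D2:**
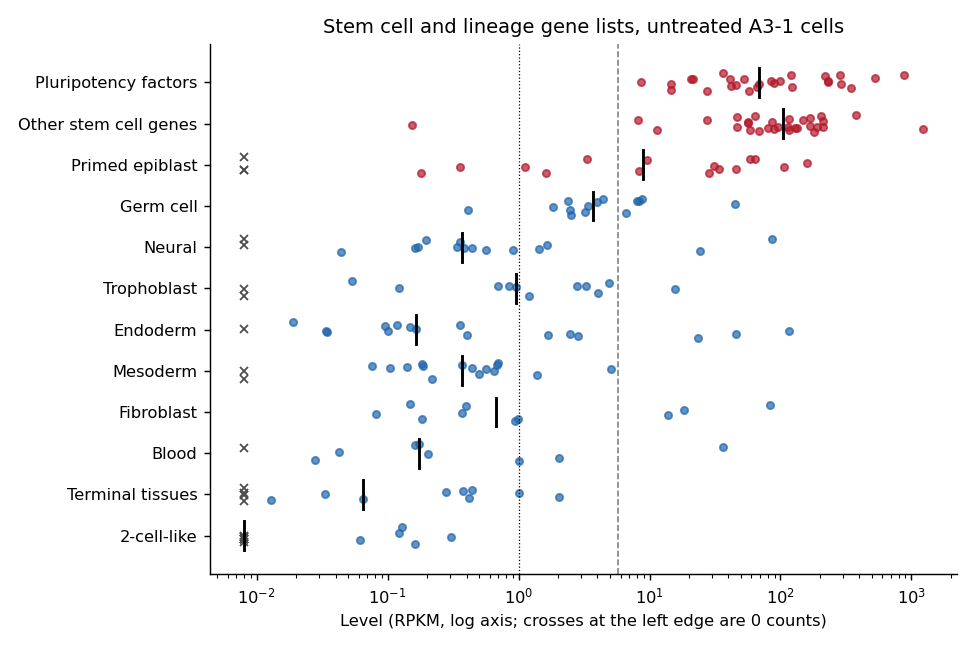
Level (RPKM, log axis) of each listed gene in the untreated library, by gene list (red, pluripotency, stem cell and primed epiblast; blue, germ cell, differentiated and 2-cell-like lists); crosses at the left edge are 0 counts, black bars are list medians, the dotted line is 1 RPKM and the dashed line the median of all transcripts, 5.70. The pluripotency factors lie between 8.58 and 874 RPKM. The medians of the neural, mesoderm, endoderm, blood and terminal lists lie between 0.0650 and 0.369, and those of the fibroblast and trophoblast lists at 0.668 and 0.953.

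Genes of the later, primed epiblast were mixed. Of 18 listed there 13 reached 1 RPKM, with a median of 8.92. That share, 72.2%, is near the 70.6% of all transcripts. Lefty2 and Lefty1, secreted inhibitors of Nodal, stood at 159 and 107, Tead2 at 58.3, the tight junction gene Cldn6 at 46.1 and Otx2, a factor of the transition from the naive state, at 33.9. Nodal itself was at 28.6 and the de novo methyltransferase gene Dnmt3b at 31.0. Fgf5, a defining marker of the primed state, had 0 counts, which allows up to 0.129 RPKM. Wnt3 and Wnt8a, genes of the primitive streak signal, also had 0 counts (up to 0.104 and 0.213), and Fgf8 had 2.

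Genes of the 2-cell-like state were at or near 0 counts. Of 13 listed, 0 reached 1 RPKM and 8 had 0 counts, against 4.69% of all transcripts with 0. The whole list summed to 10 counts, 1.08 CPM. Zscan4c and Zscan4f had 0 counts and Zscan4d 3 (0.163 RPKM), and the highest member was Arg2 at 0.305. Members of the Zscan4, Dub1 and Tcstv families are near-identical copies, so their single values are uncertain.

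Regulators of the germ layers were mostly low, and the highest members of these lists were structural genes. Of 16 neural genes 4 reached 1 RPKM (25%, against 70.6% of all transcripts): Stmn2, a microtubule regulator, at 85.9 RPKM, Tubb3, a neuronal beta-tubulin, at 24.4, Syp at 1.65 and Nes at 1.43. The neural regulators Pax6, Sox1 and Olig2 had 8 (0.339 RPKM), 6 (0.160) and 1 counts. Of 17 mesoderm genes 2 reached 1 RPKM (11.8%), the intermediate filament gene Des at 5.07 and Gata1 at 1.37. The primitive streak and mesoderm regulators T, Mixl1, Gsc and Tbx6 lay between 0.369 and 0.644 RPKM on 7 to 12 counts, and Mesp1 and Hand1 had 0. Of 17 endoderm genes 6 reached 1 RPKM (35.3%), among them the basement membrane genes Sparc at 115, Lamb1 at 45.8 and Lama1 at 23.5. The endoderm regulators Gata6, Gata4, Sox17 and Foxa2 had 3, 3, 1 and 7 counts, and Sox7 had 0.

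Trophoblast genes were mostly low, and most germ cell genes stood at a few RPKM. Of 13 trophoblast genes 6 reached 1 RPKM (46.2%, against 70.6% of all transcripts), led by the broadly expressed Ets2 at 15.7, with Rhox6 at 4.87, Krt18 at 4.01 and Ascl2 at 3.28. The trophectoderm regulators Cdx2 and Gata3 had 0 counts (up to 0.151 and 0.101 RPKM), and Eomes had 29 (0.843). Of 18 germ cell genes chosen, 4 were not in the table. Of the 14 in it, 13 reached 1 RPKM (92.9%), though 1 reached 10, against 40.5% of all transcripts. That was Kit, the stem cell factor receptor gene, at 44.7 RPKM. The meiotic gene Sycp3 was at 8.75, Prdm1 (BLIMP1) at 8.33, the piRNA pathway gene Mael at 7.96, Ddx4 (mouse Vasa homolog) at 3.41, Dazl at 3.19 and Stra8 at 2.45.

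Markers of fibroblasts, blood and differentiated tissues were low in the main. Of 10 fibroblast genes listed 3 reached 1 RPKM (30%, against 70.6% of all transcripts): Vim at 83.5, Fbln1 at 18.4 and Thy1 at 13.9. The collagen genes Col1a1, Col1a2 and Col6a1 had 16, 7 and 3 counts (0.368, 0.147 and 0.0814 RPKM). The fibroblast list summed to 251 CPM. Of 9 blood genes 3 reached 1 RPKM, led by Cd68, a lysosomal membrane gene, at 36.5, while the leukocyte genes Csf1r, Mpo and Sfpi1 had 1, 1 and 2 counts. Of 13 genes of terminal tissues 2 reached 1 RPKM, Cela1 at 2.05 and Myh6 at 1.01, and Ckm, Krt5, Myh1 and Umod had 0. The terminal list summed to 10.8 CPM. Of 6 Y-linked genes 3 reached 1 RPKM (50%, against 70.6% of all transcripts), Eif2s3y, Ddx3y and Uty at 39.8, 21.5 and 6.40. The other 3 were below 1 RPKM, the lowest at 0.0533. Xist, the RNA of X inactivation, stood at 1.57.

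Families of developmental regulators were low as a whole (HOX, GATA, PAX), led by 1 or a few genes (SOX, TBX) or more evenly spread (FOX). Of 9 HOX genes listed 0 reached 1 RPKM (against 70.6% of all transcripts) and 4 had 0 counts (against 4.69%). The HOX family summed to 22 counts. Of 6 GATA genes 1 reached 1 RPKM, and of 6 PAX genes 1, Pax8 at 2.65. The SOX family had 1 gene above 100 RPKM, Sox2, then Sox15 and Sox13 at 20.6 and 20.3. Among TBX genes Tbx3 stood at 42.2 and the next, Tbx21, at 1.06. Of 32 FOX genes 19 reached 1 RPKM, a share somewhat below the 70.6% of all transcripts. Foxk2 and Foxo4 were highest at 31.0 and 30.9, while Foxd3, a factor needed in the early epiblast, was at 27.6. Of 38 olfactory receptor transcripts 3 reached 1 RPKM (against 70.6% of all), with the highest at 2.02.

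The LIF pathway was present from receptor to target, and its ligand was low. Of 16 genes 15 reached 1 RPKM (93.8%, against 70.6% of all transcripts). The receptor genes Il6st (gp130) and Lifr stood at 30.5 and 17.0, the kinase gene Jak1 at 13.5 and Jak2 at 1.39, and the transducer Stat3 at 66.0. The feedback inhibitor Socs3 was at 64.1, and the targets Pim3, Pim1, Klf4 and Junb at 149, 46.5, 45.9 and 19.2. Lif had 21 counts (0.565 RPKM) in cells given LIF in the medium.

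For the FGF pathway 24 of 26 genes reached 1 RPKM (92.3%, against 70.6% of all transcripts). The ligand gene Fgf4 stood at 85.7 and Fgfr1 at 20.3, against 1.31, 0.359 and 0.961 for Fgfr2, Fgfr3 and Fgfr4. The kinase gene Map2k1 was at 82.7. Among the response genes Etv5, Spry2, Etv4 and Spry4 lay between 50.8 and 59.8 RPKM, Egr1 was at 31.2 and Dusp6 at 24.2.

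Of 24 genes of the BMP and Nodal pathways 22 reached 1 RPKM (91.7%, against 70.6% of all transcripts). The Nodal coreceptor gene Tdgf1 (Cripto) was highest at 179.7, and the shared mediator Smad4 stood at 34.9. Bmp4 was at 16.0 and its targets Id3 and Id1 at 38.8 and 19.5. Of the receptor-regulated SMAD genes, Smad2 was at 25.3, Smad5 at 10.8, Smad3 at 5.03 and Smad1 at 4.82. Tgfbr2, the type II receptor for TGF-beta, had 8 counts (0.180 RPKM).

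Of 21 Wnt pathway genes 18 reached 1 RPKM (85.7%, against 70.6% of all transcripts). Ctnnb1 (beta-catenin), which also serves in adherens junctions, was highest at 364. The receptor genes Fzd7 and Fzd5 stood at 55.5 and 52.0. The TCF genes Tcf7, Tcf7l1, Tcf7l2 and Lef1 were at 39.1, 14.6, 3.38 and 2.72. The feedback target Axin2 was at 6.36, and Sp5, another target, had 3 counts (0.154 RPKM).

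Cell cycle genes ranged widely. Of 24 genes 21 reached 1 RPKM (87.5%, against 70.6% of all transcripts), with a median of 24.02. Cdk4 and Ccne1 (cyclin E1) were highest at 351 and 213. Ccnb2 and Ccna2, mitotic and S-phase cyclins, were at 142 and 103, while Ccne2 and Ccna1 were at 3.25 and 0.620. The inhibitor genes Cdkn1a and Cdkn1b stood at 20.7 and 17.5, Cdkn2a at 4.07, and Cdkn2b and Cdkn2c had 4 and 3 counts. Rb1, the retinoblastoma gene, was at 2.78. All 6 subunits of the MCM replicative helicase lay above 100 RPKM, against 4.61% of the table, from Mcm4 at 120.03 to Mcm3 at 419.

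Of 18 apoptosis genes 16 reached 1 RPKM (88.9%, against 70.6% of all transcripts). The effector gene Bax stood at 324 against 35.9 for Bak1. Among the survival genes Mcl1 was at 155 and Bcl2l1 at 20.2, and Bcl2 had 5 counts (0.0749 RPKM). Trp53 (p53) stood at 219. Cycs, cytochrome c, was listed at 0.635 RPKM, one of the low values taken up with the ribosomal proteins.

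All 20 heterochromatin genes, also chosen with earlier results known, reached 1 RPKM (against 70.6% of all transcripts), and 19 reached 10 (against 40.5%). Below Trim28 came Cbx1 (HP1 beta) at 175, Dnmt3l at 168, the remodeller gene Hells at 164, Dnmt1 at 99.96 and its partner Uhrf1 at 99.2. The partners of TRIM28 were lower, Setdb1, its histone methyltransferase, at 43.4 and Zfp809, a zinc finger protein that recruits it, at 17.7. Of the H3K9 methyltransferase genes Ehmt2 (G9a) was at 90.1, Ehmt1 (GLP) at 19.07, Suv39h2 at 13.0 and Suv39h1 at 10.1.

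Imprinted genes and long non-coding RNAs were spread over a wide range. Of 24 imprinted genes 21 reached 1 RPKM (87.5%, against 70.6% of all transcripts), with a median of 13.0 RPKM. Of the 24, 1 reached 100, near the 4.61% of all transcripts that did. The maternally expressed RNAs Rian, Meg3 and Mirg of the Dlk1 region stood at 125, 38.3 and 34.6, against 1.57 for the paternally expressed Dlk1. Phlda2 was at 99.9, Snrpn at 81.8 and Mest at 75.7, and H19 at 11.3 beside its neighbour Igf2 at 0.160 (6 counts). Of 20 chosen long non-coding RNAs 18 reached 1 RPKM (90%, against 70.6% of all transcripts), with a median of 51.0. Malat1, a nuclear speckle RNA, was highest at 329 RPKM (21309 counts), and Neat1, the paraspeckle RNA, stood at 96.8. The snoRNA host genes Snhg1 and Gas5 were at 173 and 169. Of 537 non-coding transcripts of 200 bases or more 198 reached 1 RPKM, fewer in share than the 11181 of 15637 coding ones.

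Of the families counted, oxidative phosphorylation subunits, initiation factors and solute carriers held the largest shares of counts. Per kilobase the order was another, with cytosolic ribosomal proteins at 4.05%, oxidative phosphorylation subunits at 3.65% and initiation factors at 1.68%. Proteasome subunits followed at 1.66%, small nucleolar RNAs at 1.44% and solute carriers at 1.25%. The 81 oxidative phosphorylation subunits held 1.52% of counts, with a median of 134 RPKM and 48 at 100 or more. Of all transcripts 4.61% reached 100 RPKM. The 46 initiation factors, grouped by gene symbol so that Eif5a is among them, held 1.51%. Of these 20 stood at 100 or more, and Eif3k was second to Eif5a at 491. The 305 solute carriers held 1.42%, with a median of 2.93 RPKM and Slc2a3 highest. The 44 proteasome subunits held 1.00%, with a median of 139.8 and Psmb4 highest at 511. The 12 chaperonin subunits, which fold actin and tubulin or act in mitochondria, held 0.888%, and 10 of 12 lay above 100 RPKM. The 16 HSP90 and HSP70 chaperones held 1.14%, and Hsp90ab1 alone had 56922 of their 105898 counts. The 56 replication-dependent histone genes held 514 counts together. Their mRNAs mostly lack a poly(A) tail and the library was selected for it, and near-identical copies make their single values uncertain.

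The cytosolic ribosomal proteins were uneven. The 81 transcripts held 1.35% of counts (1.34 to 1.35) and 4.05% of counts per kilobase, with a median of 36.0 RPKM and a range from 0.912 (Rpl29, 6 counts) to 2311 (Rpl8, 18459 counts). Most of these proteins are present once in each ribosome. Many of their genes have processed pseudogenes, copies of the mRNA in the genome, from which reads may not be told apart, and the way reads with several matches were counted is not stated. The 16 transcripts with no RefSeq pseudogene named after them had a median of 229 RPKM, the 19 with 1 had 64.9, the 11 with 2 had 12.2 and the 35 with 3 or more had 16.8. Rps4x, the gene on the X chromosome, stood at 18.6 RPKM (151 counts), and Rps4y2, a non-coding entry of the same family on chromosome 6 and 1 of the 81, at 327 (2850 counts). The part of shared reads in these differences was not tested.

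**Figure D3:**
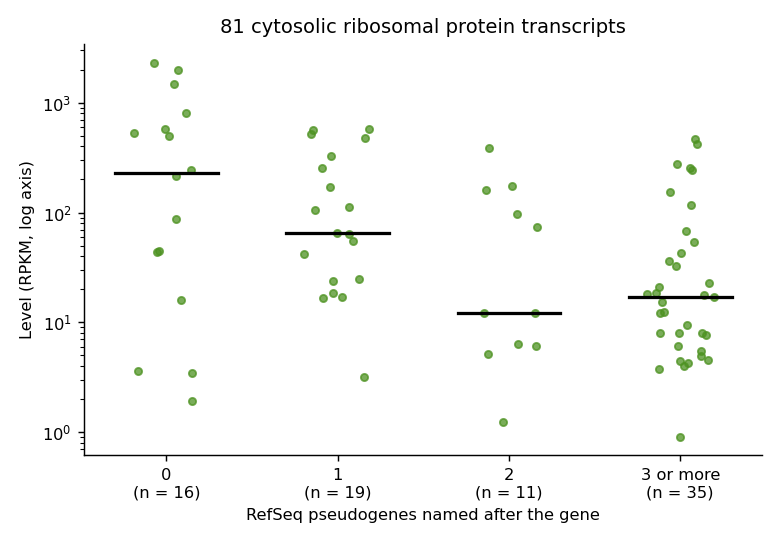
Level (RPKM, log axis) of each of the 81 cytosolic ribosomal protein transcripts, by the number of RefSeq pseudogenes named after the gene; black bars are medians. The medians run from 229 RPKM with none to 12.2 with 2 and 16.8 with 3 or more, and the lowest transcript of each class lies between 0.912 and 3.19.

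Low values also stood at other genes that are usually abundant in dividing cells, which were picked out after their values were seen. Actg1 (cytoplasmic gamma-actin) had 19 counts (1.08 RPKM) against 8203 (469) for Actb. Hmgb1, an abundant chromatin protein, had 9 counts (0.421 RPKM) and has 9 named pseudogenes. Cycs had 18 counts and has 3, Rpl3 65 counts (5.15 RPKM) and 2, and Cbx3 51 counts (3.05 RPKM) and 6. Gapdh stood at 86.0 RPKM, Pgk1 at 7.61, Pgam1 at 2.83 and Ppia (cyclophilin A) at 3.52. Actg1 and Ppia have no pseudogene under that naming, and copies with other names were not counted. Over all coding transcripts the 323 with a named pseudogene had a median of 18.4 RPKM and the 15314 without had 6.04. The transcripts in these groups were not matched for kind of gene, so their medians cannot tell whether shared reads lowered a level. Whether the low levels listed here reflect little RNA or the counting was not tested.

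Paralog choice was often one-sided. In 63 sets of related genes with at least 2 members in the table, the highest member held more than 90% of the summed RPKM in 21 and less than 50% in 5. It stood at least 10-fold above the next member in 23. In the 46 sets with no member that has a named pseudogene, which leaves out the actins, these numbers were 17, 4 and 18. Ranked by counts instead of RPKM, another member came first in 7 sets.

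Among transcription factors 3 sets were led by 1 member with over 90% of the summed RPKM, those of Pou5f1, Sox2 and Esrrb, and the others were graded. Pou5f1 stood 45.8-fold above Pou2f1 (41.8 to 50.4), the ubiquitous OCT1 gene at 19.08 RPKM, and the neural Pou3f2 and Pou3f4 had 0 counts. Sox2 stood 212-fold above Sox3 (149 to 312), its nearest relative in level at 1.62 RPKM. Esrrb stood 16.9-fold above Esrra (15.02 to 19.12). Mycn (89.7 RPKM) stood 4.15-fold above Myc (21.6). Klf2, Klf5 and Klf4 formed a graded series at 283, 99.6 and 45.9 RPKM, and Klf1, the erythroid factor, was at 1.06. Sall4 and Sall1 were close, at 68.8 and 62.6 RPKM (ratio 1.10, 1.04 to 1.15).

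The subunits of the BAF chromatin remodeller, whose paralogs change between stem cells and neurons, were those known from embryonic stem cells. The ATPase gene Smarca4 (BRG1) stood at 74.3 RPKM and Smarca2 (BRM) at 0.260, a ratio of 286 (170.2 to 523). Smarcc1 (BAF155) stood 11.2-fold above Smarcc2 (BAF170; 9.95 to 12.7). Actl6a (BAF53A) was at 160.2 RPKM, and the neuronal Actl6b had 0 counts, so that Actl6a was at least 766-fold higher against a floor of 3 counts. Arid1a stood 18.1-fold above Arid1b. In the BAF45 set Phf10 and Dpf2 were not separated by counting error (44.4 and 40.5 RPKM; ratio 1.10, 0.993 to 1.21), while Dpf1 and Dpf3, the neuronal members, were at 8.15 and 0.249.

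Other chromatin sets were graded. Among Polycomb CBX genes Cbx7, the member known to lead in embryonic stem cells, was at 83.4 RPKM, then Cbx6 at 25.1, Cbx2 at 8.72 and Cbx8 at 0.775. Ezh2 stood 2.40-fold above Ezh1 (2.17 to 2.65). Tet1, Tet2 and Tet3, which oxidise methylcytosine, were at 69.0, 28.8 and 1.07 RPKM. Dnmt3l, the catalytically inactive cofactor, led the methyltransferases at 168 RPKM, ahead of Dnmt1 at 99.96, Dnmt3b at 31.0 and Dnmt3a at 16.6, but had fewer counts than Dnmt1 (2827 and 5442).

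**Figure D4:**
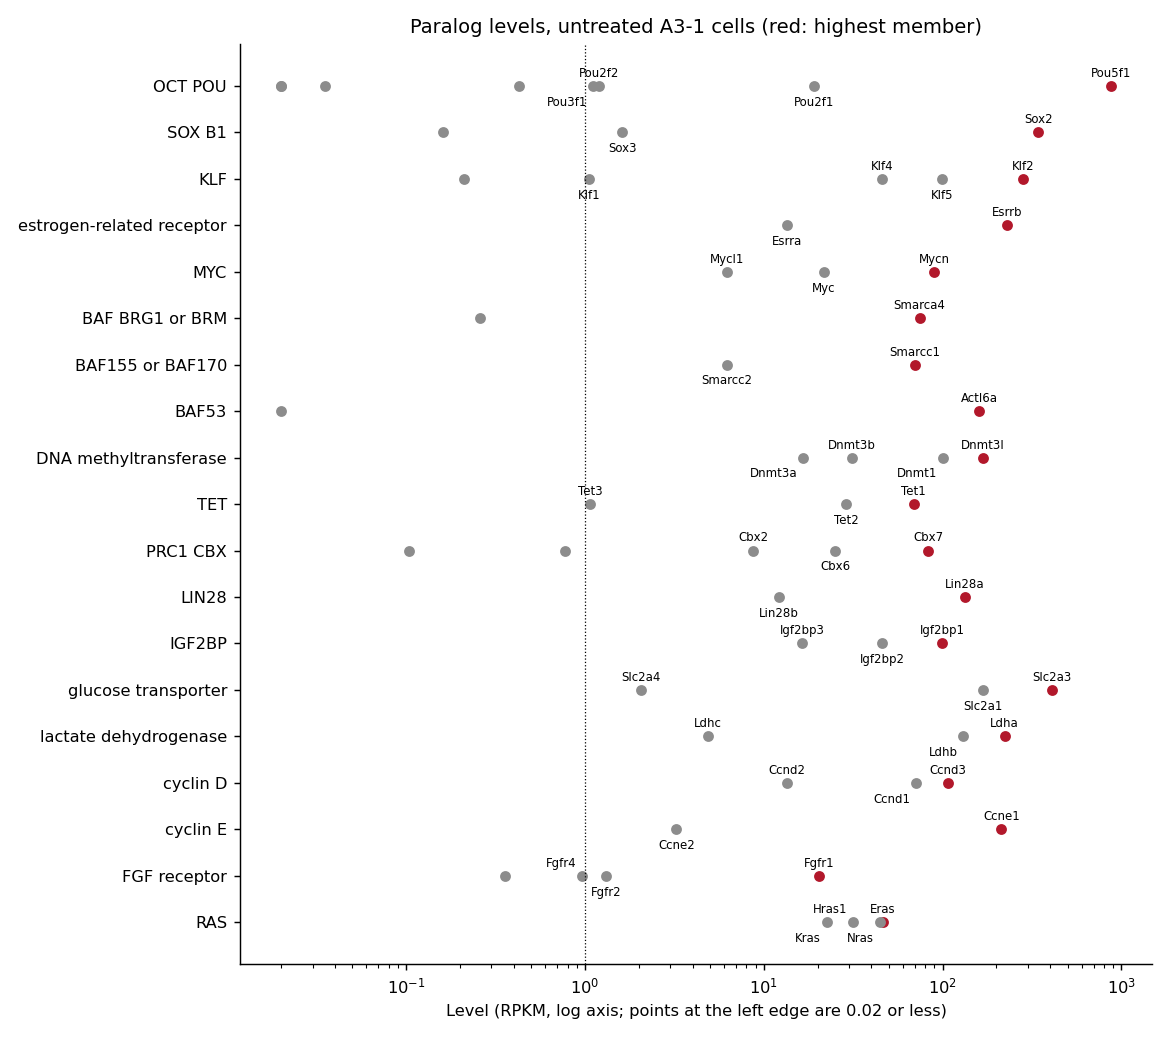
Level (RPKM, log axis) of every member of 19 paralog sets in the untreated library; red points are the highest member of each set, grey points the others, the dotted line is 1 RPKM, and members below 0.9 RPKM are drawn without a name. The highest member lies far from the next in the OCT, SOX B1, BAF53, BRG1 or BRM and cyclin E sets (45.8-fold or more), and the RAS members lie between 22.4 and 46.3 RPKM.

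Metabolic paralogs ranged from graded to one-sided. Slc2a3, the high-affinity glucose transporter gene, stood at 409 RPKM, 2.43-fold above Slc2a1 (2.34 to 2.51), and the insulin-dependent Slc2a4 was at 2.07. Hk2 stood 2.03-fold above Hk1 (1.89 to 2.19). Pkm2 was at 568 RPKM, where the symbol covers the gene and the table does not tell its splice forms apart, against 0.387 for Pklr. Ldha and Ldhb were at 222 and 131. Ucp2 was at 46.1, at least 234-fold above Ucp1 with 0 counts against a floor of 3. Of the cytochrome oxidase genes Cox4i1 was 344-fold above Cox4i2 (201 to 647), and Cox7a2 was 4.43-fold above the muscle form Cox7a1 at 37.2 RPKM.

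The RNA-binding, cycle and signalling sets held both kinds as well. Lin28a stood 11.0-fold above Lin28b (10.1 to 12.005), which was at 12.1 RPKM. Igf2bp1, Igf2bp2 and Igf2bp3, fetal mRNA-binding proteins, were at 99.8, 46.1 and 16.3. Ptbp1 was at 177 and its neuronal paralog Ptbp2 at 9.88. Ccne1 stood 65.7-fold above Ccne2 (53.4 to 81.8). The cyclin D genes Ccnd3, Ccnd1 and Ccnd2 were at 107, 70.6 and 13.4, though Ccnd1 had more counts than Ccnd3 (2484 and 2109). Eras, the RAS gene of embryonic stem cells, and Nras were not separated by counting error (46.3 and 44.6 RPKM; ratio 1.04, 0.937 to 1.15). Cdh1, E-cadherin, was at 115 RPKM and Cdh2, N-cadherin, at 1.07.

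Over all genes the CpG content of promoters differed between level classes. For 10152 genes with 1 RefSeq promoter (250 bases before to 50 after the start, GRCm38.p6), the median ratio of observed to expected CpG was 0.357 for genes under 0.1 RPKM, 0.488 from 0.1 to 1, 0.723 from 1 to 10, 0.827 from 10 to 100 and 0.847 at 100 or more. The share of promoters at a ratio of 0.6 or more was 27.7% in the lowest class, 87.7% in the highest and 65.9% over all. Genes with 0 counts were found on both sides, since the ratio was 0.731 for Cdx2 and 0.226 for Ckm, whose sequences are given above. Not all gene lists followed the classes. Such a promoter was found for 81.8% of 11 neural, 80% of 10 trophoblast, 66.7% of 12 germ cell, 50% of 8 endoderm and 30% of 10 mesoderm genes, and for 0 of 10 terminal and 0 of 4 blood genes. Among the high lists it was found for 56.2% of 16 pluripotency factors and 35.7% of 14 other stem cell genes, both below the share over all. These are descriptions over genes that share a genome and an annotation, with no test.

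**Figure D5:**
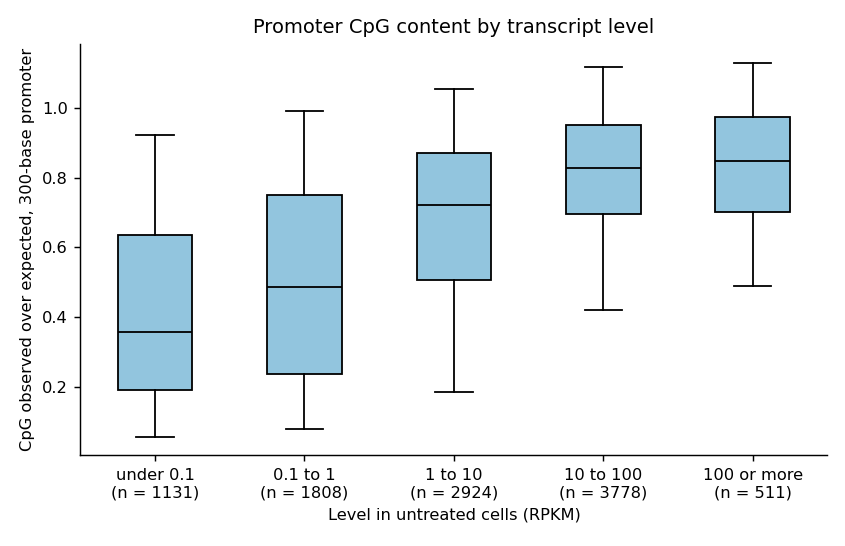
Observed over expected CpG in 300-base promoters of 10152 genes, by level class in the untreated library (RPKM); boxes are quartiles with the median line, whiskers the 5th and 95th percentiles, and n the genes in each class. The median is 0.357 in the lowest class and 0.847 in the highest, and the boxes of the lower classes are wide.

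The letters TATAAA on the gene's strand, from 40 to 20 bases before the start, were found in 1.79% of all promoters. The share was 4.16% in the lowest class, 0.503% from 10 to 100 RPKM and 1.96% at 100 or more, where 10 genes had it, Sod1, Stip1 and Srsf2 among them. The pyrimidine run at the start was found in 12.4% of all promoters and in 15.3% of those at 100 RPKM or more. Of 50 ribosomal protein genes with 1 promoter 20 had it (40%). A match is a description of letters, and the annotated start can be off by a few bases.

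Levels were spread over all chromosomes. Of 15813 autosomal transcripts 70.8% reached 1 RPKM, with a median of 13.4 RPKM among those. On the X chromosome 403 of 616 did (65.4%), with a median of 7.59, and chromosome 11 had the highest median of the autosomes, 20.3. The X chromosome is present once in a male line, and Y-linked transcripts were detected here, but the part of gene dose in these medians was not tested.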

How the data were processed

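Counts per RefSeq transcript and RPKM values of the untreated poly(A) library were used as deposited by the authors. GSNAP, bedtools and the mouse build mm9 are named without versions or roles per the submitters' processing notes, and the rule for reads with several matches is not given in the sources used here. RPKM as deposited equalled count per kilobase of listed exon length and per 1000000 counts of the column in 16456 of 16456 transcripts (relative tolerance 1e-06). CPM and intervals (95%) were computed from the deposited counts with Python 3.11.15, pandas 2.3.3 and SciPy 1.17.1, and checked on simulated data. The floor for a transcript with 0 counts is 3 counts. Identifiers were matched to RefSeq tables for 16199 transcripts, and promoter sequences are RefSeq, GRCm38.p6. Coding lengths come from the authors' deposited table of LIN28A libraries. PCR reads are not independent molecules.

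The gene lists, families and paralog sets were chosen with earlier results of these data known. Named are the markers, the 25 highest by RPKM and 10 by CPM, up to 6 members of each list at 10 RPKM or more, the highest member otherwise, defining markers at 0 counts, and the paralogs. Any other gene was chosen after its values were seen. With 1 library no test, set test or p-value was made, and no comparison with siRNA libraries. Alternatives were TPM scaling, CPM, thresholds of 0.3 and 3 RPKM, a minimum of 10 counts, exon length less 100 bases and 1 transcript per symbol. Leaving out genes with named pseudogenes was added after seeing the data. Some genes are not reported here.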

Additional observations from a re-analysis of the deposited data

How the results depend on the processing

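The number of transcripts at 1 RPKM or more stayed within 1.5 times the reported count under every alternative run. Cytosolic ribosomal proteins held 4.05% of counts per kilobase in place of 1.35% of counts, and 0.844% without members that have a named pseudogene. The 100 highest transcripts held 16.2% per kilobase. By CPM the ranks were 44 for Pou5f1, 102 for Sox2, 269 for Lin28a and 3 for Trim28, and with exon length less 100 bases they were 12, 103 and 532 for Pou5f1, Sox2 and Lin28a. List counts moved for low lists. TPM is RPKM rescaled to sum to 1000000, and 12959 of all 16456 transcripts reached 1 on that scale. With TPM, neural, mesoderm, fibroblast and terminal genes numbered 7, 8, 6 and 4. At 0.3 RPKM, reached by 13294 of all transcripts, these 4 lists numbered 10, 9, 7 and 5, and 2-cell-like genes 1. At 3 RPKM, reached by 9631 of all transcripts, neural, mesoderm, endoderm, blood and terminal genes numbered 2, 1, 3, 1 and 0. Smaller moves included trophoblast genes, 9 with TPM and at 0.3 RPKM in place of 6, and germ cell genes, 9 at 3 RPKM in place of 13. Ratios turned over by counts in place of RPKM, on the log2 scale, for Rpl39 over Rpl39l (−0.60), Phf10 over Dpf2 (−0.58), Cbx1 over Cbx5 (−0.85), Dnmt3l over Dnmt1 (−0.94), Tead2 over Tead1 (−0.98), Ccnd3 over Ccnd1 (−0.24) and Eras over Nras (−1.998), where the other member has the longer exons. No paired analysis was possible because every condition has 1 library. The single library limits all of this: spread between cultures is unknown, and intervals cover counting error only. Low levels of genes with copies are the least certain values.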
